A study of Mus musculus with 2 samples.

Results

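Genes whose symbol begins with Zfp and a number, read as zinc finger protein, were taken from the Aiolos peak list of mouse natural killer (NK) cells, leaving out the mRNA decay factors Zfp36, Zfp36l1 and Zfp36l2. The rule gave 37 of the 1404 peaks, credited to 36 of the 1276 genes with a peak. The gene description read zinc finger protein for 36 of 36 genes, and the symbols of all 37 peaks matched the gene table. Aiolos, encoded by Ikzf3, is itself a zinc finger transcription factor of lymphocytes. Its positions on chromatin were mapped by CUT&RUN, in which an antibody guides micrococcal nuclease to a protein and the DNA released around it is sequenced. One group was 1 library made with the Aiolos antibody and the other was 1 library made with no primary antibody. Both came from mouse splenic NK cells grown in culture with 50 ng/ml interleukin-15, with at least 500000 cells per sample. Strain, genotype and age are not given in the labels, and the cell type could not be checked against marker expression in a peak list. Each group had 1 library, so there is no replicate error, no test between groups was possible, and the intervals cover counting error only.

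Most proteins of this name carry C2H2 zinc fingers, small folds held by a zinc ion that read DNA or RNA. Many also carry a KRAB domain, which recruits the corepressor TRIM28 and, through it, enzymes that write repressive histone marks. KRAB zinc finger genes arose by tandem duplication and sit in gene clusters, and many of their proteins silence retroelements. Other members act at promoters, in chromatin complexes or on RNA.

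Of the protein-coding Zfp-named genes in the gene table, 35 of 394 had an Aiolos peak, or 8.88% (6.27 to 12.1, the exact Clopper-Pearson interval at 95%, as for all shares below). The background over all 21900 protein-coding genes was 5.38%, and among the 21506 other protein-coding genes 1143 had a peak, 5.31% (5.02 to 5.62). The remaining member, Zfp389, is listed as a transcribed pseudogene. Counting promoter peaks alone, 22 of 394 Zfp-named genes had one, 5.58% (3.53 to 8.33). The background of 3.79% of protein-coding genes lies inside that interval. No expression values were used, so silent genes are in every denominator, and the difference between the shares was not tested. Among other zinc finger genes grouped by name after the values were seen, 4 of 17 Klf genes had a peak (23.5%, 6.81 to 49.9), as did 3 of 41 Zbtb genes (7.32%, 1.54 to 19.9), 1 of 27 Zkscan and Zscan genes (3.70%, 0.0937 to 19.0) and 0 of 1 Znf genes.

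The sequence under 4 members is shown because their summits, the points of highest coverage, lay in the bases before a RefSeq start of the same gene, which need not be the start of the transcript credited by the authors. The letters are the mouse RefSeq sequence (GRCm38.p6), 5′ to 3′ on the strand of the gene, around the summit and not past the start. Capitals mark GGGAA or its reverse complement TTCCC, the core that Ikaros family proteins recognise.

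Zfp78, chr7:6363058-6363151, + strand: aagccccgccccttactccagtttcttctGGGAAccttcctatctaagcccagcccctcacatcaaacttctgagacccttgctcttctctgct
Zfp566, chr7:30090684-30090760, - strand: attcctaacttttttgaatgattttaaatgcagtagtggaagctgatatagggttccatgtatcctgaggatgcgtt
Zfp219, chr14:52019811-52019931, - strand: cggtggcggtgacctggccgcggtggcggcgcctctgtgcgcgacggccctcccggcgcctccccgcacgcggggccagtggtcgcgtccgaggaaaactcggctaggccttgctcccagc
Zfp868, chr8:69625286-69625406, - strand: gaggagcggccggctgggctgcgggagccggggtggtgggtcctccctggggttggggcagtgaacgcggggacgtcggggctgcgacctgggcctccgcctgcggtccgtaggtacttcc

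The stretch of Zfp78, the member with the highest fold, held the core once, and the summit fell on it, at a distance of 0 bp. The stretches of Zfp566, Zfp219 and Zfp868 held it 0 times. Each stretch covers only part of its peak, so this does not speak for the rest of the peak. Their base composition also differed: G and C made up 53.2% of the Zfp78 stretch, 36.4% of Zfp566, 76.9% of Zfp219 and 75.2% of Zfp868. Across RefSeq windows from 250 bases before to 50 bases after a start, GGGAA on either strand was in 15 of 20 Zfp windows that overlapped a peak, 75% (50.9 to 91.3). It was in 66.2% of the 379 Zfp windows without a peak and in 62.7% of all 32851 windows. Over all 845 windows that overlapped a peak, the share was 64.4%. The longer TGGGAA, which contains GGGAA, was in 8 of 20 Zfp windows with a peak, 40.0% (19.1 to 63.9), in 35.1% of Zfp windows without one, in 21.3% of all windows with a peak (18.6 to 24.2), and in 25.6% of all windows. TGANTCA, the AP-1 core, was in 1 of 20 Zfp windows with a peak, 5.0% (0.127 to 24.9), in 3.43% of Zfp windows without one, in 4.50% of all windows with a peak and in 7.81% of all windows. These are descriptions of letters, and the Zfp windows with and without a peak overlapped in their intervals. The 20 windows came from 17 genes and the 379 from 315, with some genes in both sets. Overlap with any peak of the list was counted. Member genes held 17 of the 20 windows, and the others belonged to genes with no credited peak. Windows of the same gene can hold the same letters, while the intervals treat them as independent.

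At Zfp-named genes, 23 of 37 peaks were promoter peaks, with the peak centre within 1000 bp of the start of the annotated transcript. The share was 62.2% (44.8 to 77.5), against 64.8% of all 1404 peaks, which lies inside that interval. The authors' annotation placed the other 14 peaks in intergenic sequence for 6, exons for 4, introns for 3 and 2 to 3 kb from the start for 1.

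The 37 peaks ranked from 99 to 1384 of 1404 in strength. Their median fold enrichment, the authors' ratio of antibody signal to background at the summit, was 7.41 (quartiles 5.86 and 8.29), against 6.44 over all peaks (quartiles 5.08 and 8.05). Zfp-named peaks ran from 4.02-fold to 10.5-fold, and all peaks from 3.63-fold to 25.3-fold. The strongest of them, at Zfp78, was the 1 of the 37 among the 100 strongest of the 1404 peaks. Above the median of the whole list lay 23 of 37 (62.2%, interval 44.8 to 77.5). Over all peaks it was 48.9%, which lies inside that interval. Among promoter peaks the median was 7.57 at Zfp-named genes and 6.60 over all 910, and away from promoters it was 7.08 at Zfp-named genes and 5.90 over all 494. The order turned in the 687 peaks above the median fold, with 7.59 over the 23 Zfp-named peaks and 8.07 over all. These medians were not tested.

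The depth behind these folds was low. The summits held 4 to 18 tags in the antibody library, with a median of 9, and 24 of 37 rested on 10 tags or fewer (64.9%, against 71.2% of all peaks). The recovered background ran from its floor of 0.186 tags, at 14 Zfp-named peaks, to 2.93 tags. Peaks with equal tags on the floor have the same fold, so Zfp959, Zfp438, Zfp974 and Zfp809 shared 8.43-fold with 9 tags each. The counting intervals of the highest fold, 5.79 to 17.7 at Zfp78, and of the lowest, 1.68 to 9.05 at Zfp46, overlapped, so the order of members was not resolved.

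**Figure D1:**
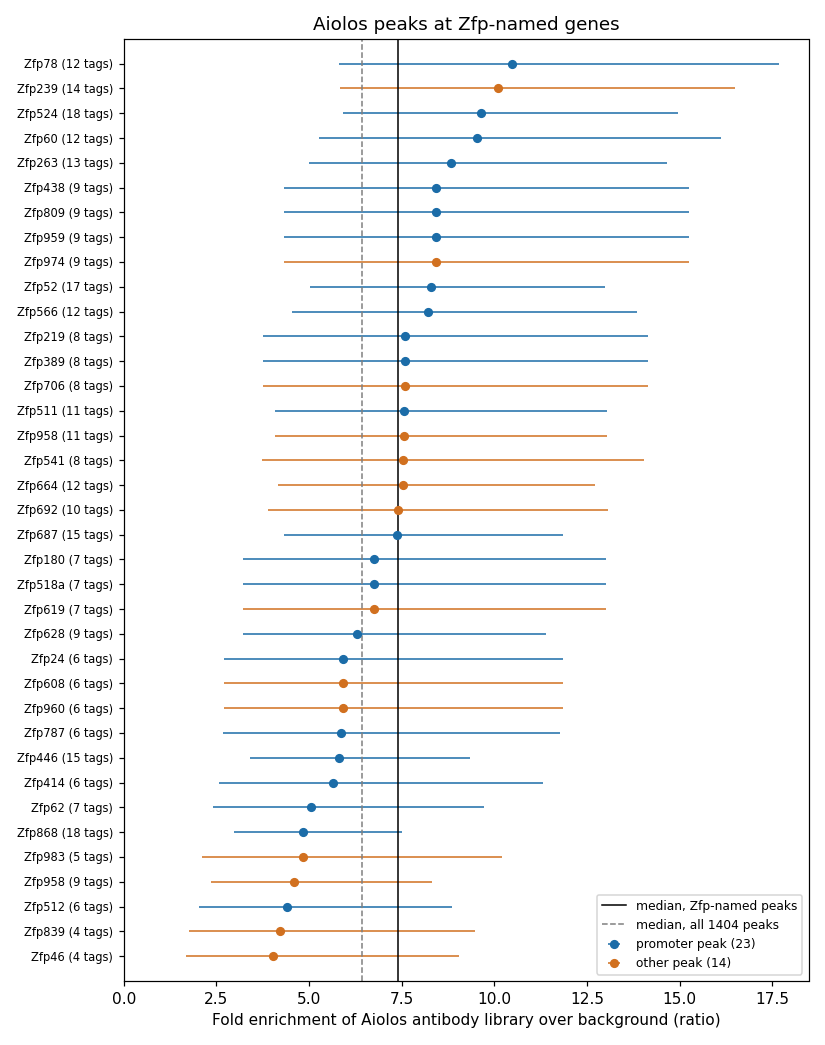
Fold enrichment of the Aiolos antibody library over background (ratio, horizontal axis) for the 37 peaks at Zfp-named genes, with the gene and its summit tags on the vertical axis. Points are the authors' folds, bars the 95% exact Poisson counting intervals, blue the 23 promoter peaks and orange the 14 others; the solid line is the median of the 37 peaks (7.41) and the dashed line that of all 1404 peaks (6.44). The bars of the top and bottom peaks overlap.

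Among Zfp genes known from lymphocytes, 1 of 9 had a credited peak: Zfp608, which in mouse thymocytes is known to restrain the Rag recombinase genes. Its peak lay in an intron of its own, 5.12 kb before the credited start, on chromosome 18 at 54900679 to 54900955. It had 5.90-fold enrichment (2.70 to 11.9) from 6 tags and a -log10 q of 4.67. The share of 11.1% (0.281 to 48.2) cannot be told from the background of 5.38% at this list size.

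The genes with no credited peak were Zfp683, which encodes the tissue residency factor Hobit, Zfp105, known to promote NK cell differentiation, Zfp318, needed for IgD on B cells, Zfp335, needed for thymocyte maturation, Zfp91, Zfp148, Zfp831 and Zfp521, a modulator of early B cell factor. Zfp683 is listed as a pseudogene in the gene table. Zfp91, a ubiquitin ligase of the NF-kB pathway, had a peak beside its start all the same. This peak on chromosome 19 at 12795928 to 12796290 was credited to Lpxn, a paxillin family adaptor. Its summit lay 180 bp from the RefSeq start of Zfp91 and 250 bp from the Lpxn start, with 6.91-fold enrichment (3.99 to 11.3) from 14 tags.

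The start of a further 3 Zfp-named genes lay within 1000 bp of a summit credited to a neighbour. RefSeq starts were at hand for 329 of the 394 protein-coding Zfp-named genes, so there can be more. For Zfp672 the peak credited to Sh3bp5l, on chromosome 11 at 58330399 to 58330933, reached 11.4-fold (6.88 to 17.8) from 17 tags, above every peak credited to a Zfp-named gene, with its summit 101 bp from the Zfp672 start. For Zfp146 the peak credited to Gm5113 had 8.05-fold (4.12 to 14.6), 219 bp away. For Zfp740 the peak credited to Csad had 4.41-fold (2.02 to 8.87), 661 bp away. None of the 4 genes, Zfp91 included, is counted among the 36. Such neighbours were common: 246 of 888 promoter peaks of the whole list (27.7%) had another gene's start within 1000 bp of the summit.

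Among sequence-specific regulators of many promoters, 2 of 10 had a peak. Zfp263, which carries SCAN and KRAB domains, carried a peak at its promoter, on chromosome 16 at 3743711 to 3744380, the widest of the 37 at 670 bp, with 8.83-fold (5.0 to 14.6) from 13 tags, a -log10 q of 9.66 and its summit 245 bp upstream. Zfp24, a SCAN domain protein needed for myelination in mice, had one on chromosome 18 at 24020916 to 24021126 with 5.90-fold (2.70 to 11.9) from 6 tags, a -log10 q of 4.67 and its summit 249 bp upstream. The general factors Zfp143, Zfp281, Zfp410, Zfp384 and Zfp64 had none.

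Each of the next lists held 1 gene with a peak. Of 7 chromatin cofactors it was Zfp687, whose human counterpart joins a complex with the reader ZMYND8. The promoter peak of Zfp687, on chromosome 3 at 95015404 to 95015941, had 7.37-fold (4.33 to 11.9) from 15 tags and a -log10 q of 8.09, and its summit, 441 bp upstream, lay 316 bp from the start of the lncRNA gene 4930481B07Rik. Of 7 genes for silencing retroelements and imprinted regions it was Zfp809, a KRAB protein that represses murine leukaemia virus-like retroelements. The promoter peak of Zfp809, on chromosome 9 at 22225382 to 22225933, overlapped the start with 8.43-fold (4.31 to 15.3) from 9 tags, a -log10 q of 9.21 and its summit 95 bp downstream.

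Of 10 genes acting on RNA, ribosomes or the spindle, the 1 with a peak was Zfp706, a small zinc finger protein. Its peak, on chromosome 15 at 36938856 to 36939083, was 63.0 kb downstream of the start, with 7.59-fold (3.76 to 14.1) from 8 tags and a -log10 q of 7.63. Of 4 cell cycle and DNA repair genes, 0 had a peak. The shares of these lists of 4 to 10 genes ran from 0% to 20.0%. Their lower interval bounds were 2.52% or less and their upper bounds 44.5% or more. Each interval held the background of 5.38%, so none could be set apart from it.

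The strongest promoter peak belonged to Zfp78, on chromosome 7 at 6362677 to 6363264. It had 10.5-fold enrichment (5.79 to 17.7) from 12 tags over a background of 0.242 tags, a -log10 q of 12.9 and a summit 189 bp upstream. Next came Zfp524, whose human counterpart binds telomere repeats, on chromosome 7 at 5014894 to 5015342 with 9.65-fold (5.92 to 14.9) from 18 tags over 0.970. The Zfp524 summit, 463 bp upstream, was 279 bp from a start of Fiz1, a gene for a FLT3-interacting zinc finger protein. Zfp60 followed on chromosome 7 at 27731408 to 27731639, with 9.53-fold (5.28 to 16.1) from 12 tags over 0.364. The -log10 q was 12.7 at Zfp524 and 10.8 at Zfp60.

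High tags did not always give a high fold. Zfp868, on chromosome 8 at 69625296 to 69625525, also had 18 tags, but over a background of 2.93 tags, which gave 4.84-fold (2.97 to 7.5) and a -log10 q of 5.15. Zfp446, on chromosome 7 at 12977833 to 12978058, had 15 tags over 1.76 and 5.80-fold (3.41 to 9.34, -log10 q 5.79). Zfp52, on chromosome 17 at 21534677 to 21534907, had 17 tags over 1.17, 8.29-fold (5.02 to 13.0), a -log10 q of 10.2 and the most distant summit of the promoter peaks, 763 bp upstream. By contrast Zfp959, on chromosome 17 at 55892079 to 55892305, and Zfp438, on chromosome 18 at 5334506 to 5335047, reached 8.43-fold (4.31 to 15.3, -log10 q 9.21) with 9 tags over 0.186.

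The other promoter peaks ran from 8.20-fold down. Zfp566, on chromosome 7 at 30090619 to 30090833, had 8.20-fold (4.54 to 13.8, 12 tags, -log10 q 8.38). Zfp219, a cofactor of SOX9 in cartilage, and the pseudogene Zfp389 both had 7.59-fold with 8 tags, Zfp511 had 7.57-fold with 11, and Zfp518a had 6.75-fold with 7. Zfp180 had 6.75-fold (3.22 to 13.0, 7 tags, -log10 q 6.10) on chromosome 7 at 24081953 to 24082246, and Zfp628 had 6.31-fold (3.23 to 11.4, 9 tags, -log10 q 4.86) at 4915246 to 4915760. Zfp787 had 5.86-fold (2.68 to 11.8, 6 tags, -log10 q 4.61) at 6155702 to 6155915 of the same chromosome. Zfp414 had 5.63-fold (2.58 to 11.3, 6 tags, -log10 q 4.0) on chromosome 17 at 33629126 to 33629597. At the lower end stood Zfp62 with 5.05-fold from 7 tags and Zfp512 with 4.41-fold from 6 tags and a -log10 q of 1.93.

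The promoter summits at Zfp-named genes lay mostly downstream of the credited start. Downstream of the start were 15 of 23 summits, all between 74 and 199 bp, and upstream were 8, between 183 and 763 bp. These distances are from the start of the transcript the authors credited: the Zfp868 summit, 199 bp downstream of it, is the one shown above 171 bp before a RefSeq start. The upstream share was 34.8% (16.4 to 57.3) at Zfp-named genes and 56.5% (53.2 to 59.8) at the 887 other promoter peaks. The median position was 95 bp at Zfp-named genes and -83 bp at the others. From 50 to 249 bp downstream lay 65.2% (42.7 to 83.6) of Zfp summits and 28.6% (25.7 to 31.7) of the others. Between 100 bp upstream and 49 bp downstream lay 0 of 23 Zfp summits, which allows up to 14.8% by the exact interval, and 15.2% (12.9 to 17.8) of the others. The windows were set after the positions were seen, and the difference was not tested.

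The 15 downstream peaks had a median of 6.75-fold, from Zfp512 at 4.41-fold to Zfp60 at 9.53-fold. The 8 upstream peaks had a median of 8.24-fold, from Zfp24 at 5.90-fold to Zfp78 at 10.5-fold. The ranges overlapped, and the difference was not tested.

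**Figure D2:**
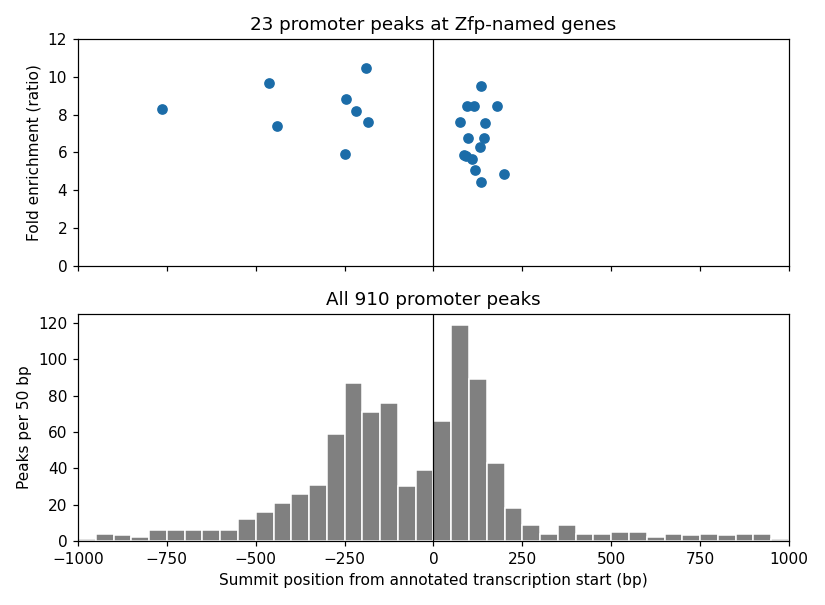
Summit position in bp from the annotated start (horizontal axis) for promoter peaks; the upper panel plots each of the 23 Zfp-named promoter peaks against its fold enrichment (ratio) and the lower panel counts all 910 promoter peaks per 50 bp, without summits beyond 1000 bp. The 15 downstream Zfp summits sit between 74 and 199 bp, and 0 lie between 100 bp upstream and 49 bp downstream.

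Most of the 14 peaks away from the credited start were far from it, with 9 of the 37 peaks more than 10000 bp away by the authors' distance. Of the 13 on chromosomes with RefSeq starts at hand, 6 had a summit within 1000 bp of the start of another gene (46.2%, 19.2 to 74.9). Among the other 467 such peaks of the list it was 19 (4.07%, 2.47 to 6.28). Starts were at hand for 17492 of the 21900 protein-coding genes, so neighbours can have been missed in both counts. The crediting of these 6 peaks to a Zfp-named gene rests on the authors' annotation, which used Ensembl transcripts. At promoter peaks the shares stood the other way, with 2 of 21 at Zfp-named genes (9.52%, 1.17 to 30.4) and 244 of 867 at the others (28.1%, 25.2 to 31.3).

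The peak credited to Zfp239, on chromosome 6 at 117879280 to 117879541, was the strongest away from promoters, with 10.1-fold (5.83 to 16.5) from 14 tags and a -log10 q of 12.1. It lay 16.2 kb downstream of the Zfp239 start and 228 bp from the start of the lncRNA gene Gm38882. Zfp692, on chromosome 11 at 58301975 to 58302526, was credited with 7.41-fold (3.90 to 13.1, 10 tags, -log10 q 6.77) from 4.54 kb upstream, 241 bp from the lncRNA gene Gm39827. The Zfp706 peak described above lay 892 bp from the start of Gm34590, also a lncRNA gene.

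The other 3 such peaks were beside protein-coding predicted genes. Zfp619, on chromosome 7 at 39552454 to 39552694, was credited with 6.75-fold (3.22 to 13.0, 7 tags, -log10 q 6.10) from 34.7 kb away, and the summit lay 4 bp from a start of Gm33989. Zfp960, on chromosome 17 at 17004742 to 17004984, was credited with 5.90-fold (2.70 to 11.9, 6 tags, -log10 q 4.67) from 59.1 kb, 269 bp from Gm51425. Zfp983, on chromosome 17 at 21679803 to 21680048, was credited with 4.83-fold (2.11 to 10.2, 5 tags, -log10 q 2.78) from 22.2 kb, 22 bp from Gm10509.

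Zfp958 was the 1 gene with more than 1 peak. Its peaks, on chromosome 8 at 4677539 to 4678196 and at 4678451 to 4678720, were 254 bp apart and 51.7 and 52.6 kb downstream of the credited start. The first had 7.57-fold (4.09 to 13.0) from 11 tags and a -log10 q of 7.18, and the second 4.61-fold (2.36 to 8.33) from 9 tags and a -log10 q of 2.53. Both were annotated as exons of other transcripts.

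Another 3 intergenic or upstream peaks had no other start within 1000 bp among the RefSeq starts at hand. Upstream of Zfp974 a peak on chromosome 7 at 27933693 to 27933908, 4.23 kb away, had 8.43-fold (4.31 to 15.3) from 9 tags. Zfp541, a gene known from meiosis in the testis, had 7.54-fold (3.73 to 14.0, 8 tags) at 16055746 to 16055975 of chromosome 7, 5.84 kb upstream. Zfp664 had 7.53-fold (4.17 to 12.7, 12 tags) on chromosome 5 at 124872997 to 124873221, 2.75 kb upstream. The -log10 q was 9.21 at Zfp974, 7.51 at Zfp541 and 7.35 at Zfp664.

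The weakest members were intronic. Zfp839 had 4.22-fold (1.76 to 9.48) from 4 tags and a -log10 q of 2.03 on chromosome 12 at 110861677 to 110861892, 11.4 kb downstream of the start in its own intron. Zfp46 had 4.02-fold (1.68 to 9.05) from 4 tags and a -log10 q of 1.67 on chromosome 4 at 136266913 to 136267127. The distance to the Zfp46 start was 17.6 kb, and the intron belonged to the transcript of a different gene.

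By chromosome, 7 stood first: it held 12 of the 37 Zfp-named peaks (32.4%), against 10.6% of all peaks. It also holds more such genes than any other chromosome, with 92 of the 394 Zfp-named protein-coding genes, of which 12 had a peak (13.0%, 6.93 to 21.7), while 5.83% (4.83 to 6.97) of the other 1938 protein-coding genes of chromosome 7 had one. Chromosome 17 followed with 5 of 45 (11.1%, 3.71 to 24.1), against 6.51% of its other protein-coding genes, and chromosome 18 with 3 of 11 (27.3%, 6.02 to 61.0), against 5.2%. On chromosome 13, where the pseudogene Zfp389 had its peak at 21506362 to 21506590, 0 of 37 protein-coding Zfp-named genes had a peak, with an upper exact bound of 9.49%, while 7.32% (5.61 to 9.36) of its other protein-coding genes did. On chromosome 2 it was 0 of 27, with an upper bound of 12.8%, against 3.36% of other genes.

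**Figure D3:**
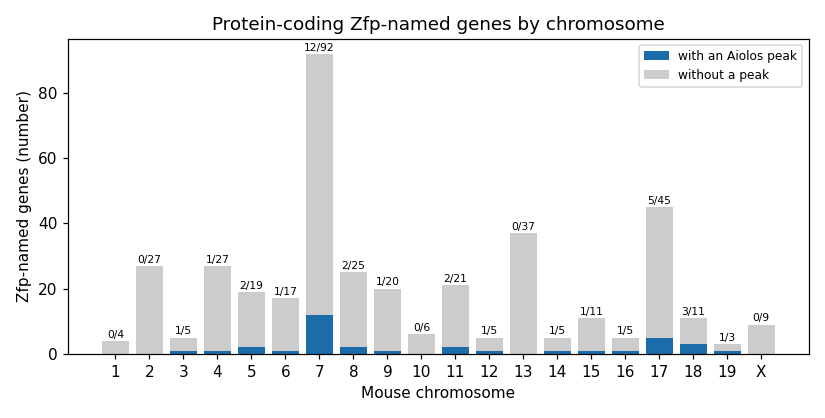
Number of protein-coding Zfp-named genes (vertical axis) on each mouse chromosome (horizontal axis), with genes that had an Aiolos peak in blue and the others in grey; the numbers give genes with a peak over all. Chromosome 7 has 12 of 92 and chromosome 13 has 0 of 37.

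Chaining Zfp-named genes whose lower coordinates lay within 500000 bp gave 35 clusters of 3 or more, with 238 genes. The lower coordinate is the transcription start for genes on the + strand alone. Inside clusters 17 of 238 genes had a peak (7.14%, 4.22 to 11.2) and outside them 18 of 156 (11.5%, 6.98 to 17.6), with overlapping intervals. With promoter peaks alone the order turned, with 15 of 238 inside clusters (6.30%, 3.57 to 10.2) and 7 of 156 outside (4.49%, 1.82 to 9.03), again with overlapping intervals. Over all protein-coding genes 5.38% had a peak and 3.79% a promoter peak, and each lies inside the matching interval for clustered genes. Outside clusters 5.38% lies below the interval and 3.79% inside it. Of the 35 clusters, 13 had a gene with a peak, 22 with 126 genes had none, and no cluster had more than 2. How many empty clusters such a share would give was not tested. The clusters with 2 were Zfp628 and Zfp524, with peaks 99.1 kb apart, Zfp787 and Zfp78, 207 kb apart, Zfp60 and Zfp974, 202 kb apart, all on chromosome 7, and Zfp52 and Zfp983 on chromosome 17.

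Peaks were not confined to the large clusters, nor present in all of them. The largest cluster, 24 genes on chromosome 13 from 66670274 to 67827000, had 0 genes with a peak, which allows up to 14.2% by the exact interval. The next, 23 genes on chromosome 17 from 21008941 to 23599755, had 2, and a cluster of 15 genes on chromosome 7 from 29768552 to 30169775 had 1, Zfp566. The neighbouring clusters of 7 and 9 genes on chromosome 4 had 0. In clusters of 6 genes each near the start of chromosome 7, 2 genes had a promoter peak, Zfp628 with Zfp524 and Zfp787 with Zfp78.

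**Figure D4:**
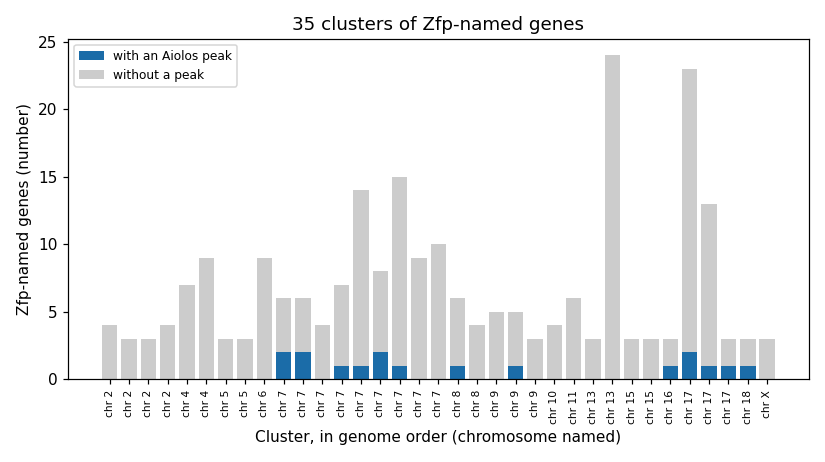
Number of Zfp-named genes (vertical axis) in each of the 35 clusters in genome order (horizontal axis, chromosome named), with genes that had an Aiolos peak in blue and the others in grey. No cluster has more than 2 genes with a peak, and the largest, with 24 genes, has 0.

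Young copies in such clusters can be near-identical, and how reads that align to several places were treated is not given in the sources used here. Of the 394 genes, 329 had a RefSeq window. A 50-base stretch identical to one in another gene's window was present in 72 of them, of which 3 had a peak (4.17%, 0.868 to 11.7). Windows of neighbouring genes that overlap on the chromosome also count as sharing, so the 72 need not all be copies. Among the 257 genes that shared no such stretch, 25 had a peak (9.73%, 6.39 to 14.0), namely 12 of 154 inside clusters (7.79%, 4.09 to 13.2) and 13 of 103 outside them (12.6%, 6.89 to 20.6). In the chromosome 13 cluster, 14 of the 21 genes with a window shared no such stretch, and had no peak. Identity was searched among these windows alone, and its part in the missing peaks was not tested.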

How the data were processed

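Everything was computed from the annotated peak list. Per the submitters' processing notes MACS2, Bowtie2 (listed as 1.3.0), Picard and SAMtools were used, in unstated roles, with the build mm10. Neither the peak threshold nor the control used for calling is given in the sources used here. Per the file headers, the authors' columns per peak are a signal value, read as fold enrichment (a ratio), and the -log10 of its p-value and q-value. The deposited score, which follows the -log10 q, was not used.

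Taking the fold as the pileup plus 1 over the background plus 1, and the p-value as the Poisson probability of a higher pileup, a whole number of summit tags was solved per peak, and the -log10 p it gives differed from the deposited one by 1.75e-05 or less. In peaks simulated with these same formulas 999 of 1000 were recovered, which checks the arithmetic and not how the deposited values were made. Fold intervals are exact Poisson at 95% with the background fixed. Shares have exact Clopper-Pearson intervals, and as PCR copies are not independent molecules, intervals cover counting error only. Names, clusters and starts came from RefSeq (GRCm38.p6, the assembly of mm10). Windows matched 28 of 36 members and 17492 of 21900 protein-coding genes. Chromosome 18 is not covered, and some genes of other chromosomes have no window either. No test was run. Genes were named by rule: all once, and in full those of the lists, the 10 strongest, those in clusters and those away from promoters. The members and lists were chosen with earlier results of these data known. Neighbours, summit windows and 50-base identity were added after the values were seen. A planned count by protein domain was not run, as no protein sequences were used here. Python 3.11.15 with SciPy 1.17.1 was used.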

Additional observations from a re-analysis of the deposited data

How the results depend on the processing

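Of 20 alternatives, 14 stayed within the limits set and 6 moved. The limits were a fixed ratio for counts of genes and an interval around the main value for the rest. They look at the Zfp-named value alone and not at its order against the comparison. Removing peaks near another gene's start and counting any start were added after seeing the data. The 35 protein-coding Zfp-named genes with a peak became 23 when peaks under the median -log10 q were dropped, 22 with the peaks above the median fold and 22 with promoter peaks alone, since each set is smaller by construction; the shares were 5.84%, 5.58% and 5.58%, against 2.89%, 2.73% and 3.79% of all protein-coding genes. Without peaks within 1000 bp of another gene's RefSeq start 27 genes were left (6.85%, against 4.32%). Counting any start raised the promoter share of the Zfp-named peaks to 78.4%, against 66.6% of all peaks. The median fold was 7.59 in both stricter sets, where all peaks had 8.05 and 8.07, so Zfp-named peaks were above the whole list in the full set and below it in these, in which the filter acts on strength. As tags the median was 9 at Zfp-named peaks and 8 over all peaks. This was counted as moved, but it was held to an interval in fold, so that label has no meaning. The share of clustered genes with a peak was 4.2% above the median fold, against 7.69% outside clusters, and with chains of 200000 bp it was 8.21% against 9.55%. Depth limits single peaks, with a median of 9 tags. No paired analysis was possible because each group has only 1 library.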
